A study of Mus musculus with 11 samples.

Results

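The genes described here are 9 genes of thiol and superoxide chemistry in AML12 cells: the peroxiredoxin-like genes *Prxl2a*, *Prxl2b* and *Prxl2c*, the thioredoxin genes *Txn1*, *Txn2* and *Txnl1*, the thioredoxin-interacting protein gene *Txnip*, the glutaredoxin gene *Glrx* and the superoxide dismutase gene *Sod1*. They were taken from the deposited table by gene name, and all 9 were found, with 1 entry each, among the 24849 genes of the table. AML12 is a line of mouse hepatocytes, and its polyadenylated RNA was sequenced in 11 libraries, of which 4 were KO, 3 WT and 4 KI. WT cells are the parental line. KO cells carry the genotype TXNDC5 Knockdown in the labels, whereas the study's methods describe a knockout made with CRISPR/Cas9, in which a puromycin resistance gene was recombined into *Txndc5* and resistant cells were selected. KI cells carry the genotype TXNDC5 Knockin, in which, by the labels, *Txndc5* was overexpressed from the ROSA26 locus, a site used for inserting genes. No second KO or KI line was analysed here, and the making of the KI line is not described in the sources used here, so that an effect of *Txndc5* and one of deriving the line cannot be told apart. The labels number the replicates 5 to 8 and name 1 WT library 5-6, and they do not say whether the replicates came from separate cultures, so that p-values measure the spread between these libraries only.

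The 9 genes were chosen on values of KO and WT libraries of this table, from which the study named the peroxiredoxin-like family. Their difference between KO and WT cells is therefore given as a description, without a test. The difference between KI and WT cells was tested, but it is not known whether KI values played a part in the choice, and the WT libraries are the same in both comparisons.

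Thioredoxins and glutaredoxins are small proteins that reduce disulfide bonds in other proteins through a pair of cysteines in their active site. Thioredoxin is itself reduced by thioredoxin reductase with NADPH, and glutaredoxin by glutathione. In hepatocytes both systems pass electrons to enzymes such as peroxiredoxins, ribonucleotide reductase and methionine sulfoxide reductases, and TXNIP, an alpha-arrestin that binds reduced thioredoxin and also lowers glucose uptake, links them to nutrient supply. TXNDC5 is a disulfide isomerase of the endoplasmic reticulum with domains of the same thioredoxin fold.

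The active-site pair can be read in the coding sequences. Below are 10 codons of the reference transcripts (GENCODE vM21, on GRCm38) around the only place of each coding sequence where 2 in-frame cysteine codons stand 3 codons apart, with these 2 codons in capitals. They are shown because this pair is what these 6 genes share.
Txn1: gctacgtggTGTggacctTGCaaaatgatc
Txn2: gcacagtggTGTggccccTGCaagatccta
Glrx: aagcccaccTGCccctacTGCagaaagacc
Prxl2a: aggccaggcTGCtttctcTGCcgagcggaa
Prxl2b: cgcttcggcTGCatggtgTGCcgctggatc
Prxl2c: catttcttgTGTtacgtcTGTaaagaatat
The first cysteine of the pair was codon 32 of 105 in *Txn1*, codon 90 of 166 in *Txn2*, whose product is made with a signal for mitochondria, and codon 23 of 107 in *Glrx*. It was codon 85 of 229 in *Prxl2a*, codon 44 of 201 in *Prxl2b* and codon 68 of 226 in *Prxl2c*. *Txnip*, with 397 codons and 11 cysteine codons, and *Sod1*, with 154 codons and 3, had no such pair. The coding sequence of *Txnl1* was not read here.

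*Txndc5* was the gene altered in KO cells and, by the labels, overexpressed in KI cells. It was counted 364, 287, 430 and 408 times in KO libraries, 3299, 3429 and 4046 in the WT libraries and 5654, 6511, 6723 and 5344 in the KI libraries. As CPM, counts scaled to a common library total with TMM factors, this was 10.25 ± 1.90 in KO (SD, n = 4), 143 ± 4.37 in WT (n = 3) and 169 ± 10.3 CPM in KI cells (n = 4). The KO libraries were all below and the KI libraries all above the WT libraries. KO cells were lower by a log2 fold change of -3.82 (SE 0.15, edgeR's quasi-likelihood test, adjusted p = 4.09e-08). The rise in KI cells was small and did not pass the test, with a log2 fold change of 0.24 (SE 0.12, adjusted p = 0.136), although it did when library totals were used for scaling (0.57). The KI mean of *Txndc5* was 1.18 times the WT mean. It is not known from the sources used here whether RNA of the inserted construct is counted on this gene.

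Total counts lay between 30380360 and 38422243 in the KO, between 29840366 and 30364098 in the WT and between 32360709 and 35335070 in the KI libraries. A single newly assembled entry took 11.3 to 17.1% of the counts of the WT libraries, 4.32 to 6.44% in KO and 4.82 to 9.12% in KI libraries. When library totals replaced TMM, the median over all genes of the log2 fold change shifted from -0.03 to 0.38 in KO and from -0.02 to 0.31 in KI cells, and the share of called genes that were higher moved from 48.5 to 72.8% and from 50.2 to 76.3%. All changes below are relative to the TMM scale. Among the WT libraries, WT 8 was the lowest in 6 of the 9 genes.

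All 10 hepatocyte markers were detected in every library, with *Alb*, which encodes albumin, between 160 and 4767 CPM. *Krt19*, a keratin of bile duct cells, reached 565 to 1175 CPM and *Vim*, the mesenchymal filament gene, 1169 to 1283 CPM in KO, 689 to 896 in WT and 689 to 795 CPM in KI libraries, while *Epcam*, *Col1a2*, *Col3a1*, *Adgre1* and *Clec4f* had no counts in any library. The 3 endothelial markers summed to at most 0.425 CPM. The 4 immune markers summed to 6.64 to 9.20 CPM in WT, 1.32 to 2.09 in KO and 2.52 to 5.66 CPM in KI libraries, *Cd68* being the most abundant of them except in KI 6, where it was *Ptprc*. In KO against WT, 8 of the 10 hepatocyte markers passed edgeR's test, 6 higher and 2 lower, where 55.1% of all genes passed. *Alb* (log2 fold change 2.99, SE 0.26, adjusted p = 5.68e-06) and *Apoa1* (3.82, SE 0.26, adjusted p = 1.11e-06) were among the higher, with *Apob*, *Afp*, *Hnf4a* and *Cebpa*, while *Trf* (-1.16, SE 0.21, adjusted p = 0.000843) and *Ttr* (-0.93, SE 0.18, adjusted p = 0.00139) were lower. In KI against WT, 6 of the 10 passed, 4 higher and 2 lower, where 42.3% of all genes passed. *Alb* (-1.06, SE 0.25, adjusted p = 0.00437 in edgeR) and *Trf* (-1.08, SE 0.21, adjusted p = 0.00143) were lower, and *Apob*, *Afp*, *Krt8* and *Krt18* were higher. The biliary markers also moved unequally, since in KO cells *Krt7* (-3.40, SE 0.12, adjusted p = 2.32e-08 in edgeR) and *Sox9* (-0.47, SE 0.16, adjusted p = 0.0297) were lower and *Krt19* (0.49, SE 0.14, adjusted p = 0.0117) was higher. *Vim* was higher in KO cells (0.65, SE 0.14, edgeR adjusted p = 0.00285). In KI cells *Krt7* was lower too (-0.59, SE 0.13, edgeR adjusted p = 0.00288). The part of the marker genes in the differences below was not tested. In bulk RNA, fewer cells that express a gene and less RNA per cell cannot be told apart.

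*Prxl2a*, whose product is a redox-active protein with a thioredoxin-like fold, was at 7.04, 4.83, 3.51 and 4.92 CPM in the KO libraries, at 133, 164 and 109 CPM in the WT libraries and at 23.3, 22.5, 20.3 and 33.5 CPM in the KI libraries. The 3 groups did not overlap, with WT highest and KO lowest. The WT mean was 26.7 times the KO mean, a log2 fold change of -4.76 for KO against WT. It was 5.44 times the KI mean, and this fall in KI cells passed the test (log2 fold change -2.45, SE 0.19, edgeR adjusted p = 2.03e-06). The KI mean in turn was 4.91 times the KO mean.

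*Prxl2b* encodes an enzyme of prostamide and prostaglandin F2 alpha synthesis. It was the least abundant member, with 76, 73, 27 and 85 counts in the KO libraries, 138, 153 and 118 in the WT libraries and 11, 3, 6 and 0 in the KI libraries. Here the order of the altered lines was the opposite of that for *Prxl2a*, since the KI cells were lowest, and again the 3 groups did not overlap. In CPM, the means were 1.77 ± 0.64 in KO (SD, n = 4), 5.50 ± 1.15 in WT (n = 3) and 0.14 ± 0.13 in KI cells (n = 4). KO against WT gave a log2 fold change of -1.65. KI against WT gave -5.27 (SE 0.56, edgeR adjusted p = 1.74e-05), which rests on the few counts of the KI libraries and ranged from -5.98 to -4.89 when 1 library was left out.

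*Prxl2c*, known also as *Aaed1*, belongs to the same family. Its levels were 50.6, 41.4, 52.7 and 38.8 CPM in KO, 88.5, 88.1 and 59.7 CPM in WT and 38.3, 34.5, 32.9 and 44.5 CPM in KI libraries. The WT libraries lay above all others, WT 8 being the nearest to them, and the KO and KI libraries overlapped. The log2 fold change was -0.80 for KO against WT and -1.07 for KI against WT (SE 0.17, edgeR adjusted p = 0.00032). In GENCODE vM21 the exons of *Prxl2c* share 11 bases with those of *Cdc14b* on the same strand and 494 bases with an antisense gene, and those of *Prxl2b* share 25 bases with *Mmel1* on the opposite strand. No source used here says whether the counting used strand.

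Within a library the ratio of *Prxl2a* to *Prxl2c* counts does not depend on the scaling. It was between 1.51 and 1.86 in WT, between 0.608 and 0.754 in KI and between 0.0666 and 0.139 in KO libraries. The 2 genes thus changed unequally in both lines.

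**Figure D1:**
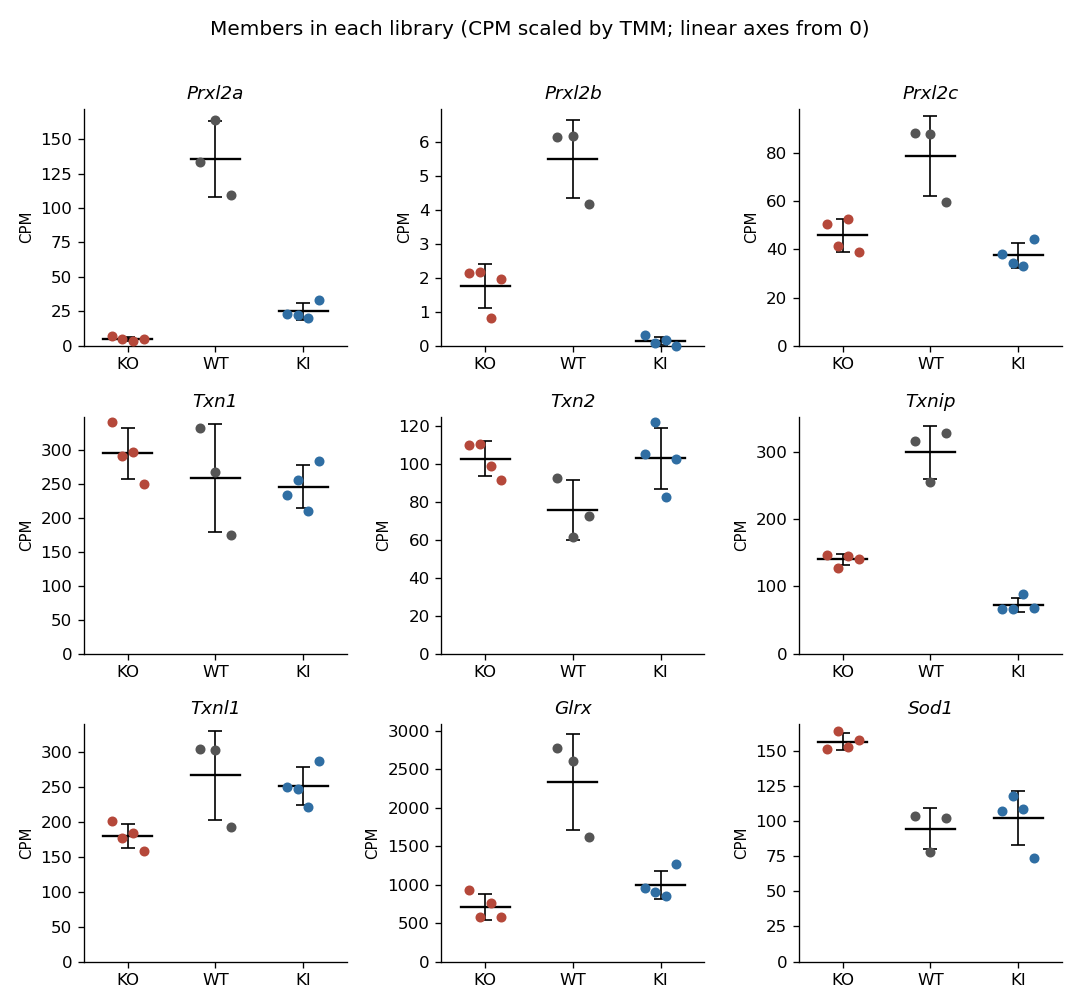
CPM (scaled by TMM, linear axes from 0) of the 9 members in each library of KO (red), WT (grey) and KI (blue) cells, 1 point per library, with the mean as a line and the SD as bars. The WT points of *Prxl2a*, *Prxl2b*, *Prxl2c*, *Txnip* and *Glrx* lie above all KO and KI points, and those of *Sod1* lie below all KO points.

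*Txnip*, the arrestin that binds thioredoxin, was high in WT and lower in both altered lines. Its levels were 146, 128, 146 and 141 CPM in KO, 316, 255 and 328 CPM in WT and 65.7, 66.6, 88.4 and 68.2 CPM in KI libraries. The 3 groups were apart, with KI lowest, and the KO libraries lay within a coefficient of variation of 6.13%. The WT mean was 2.14 times the KO mean, with a log2 fold change of -1.11 for KO against WT. KI cells were lower than WT cells by 4.15-fold in the means (log2 fold change -2.05, SE 0.15, edgeR adjusted p = 1.32e-06). In GENCODE vM21, 606 exon bases of *Txnip* are shared with an antisense gene on the opposite strand.

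*Txn1*, the cytosolic thioredoxin to which TXNIP binds, did not follow it. It was at 341, 291, 298 and 250 CPM in KO, at 333, 268 and 175 CPM in WT and at 234, 256, 210 and 284 CPM in KI libraries, and all groups overlapped. WT 8 was the lowest of the 11 libraries. The log2 fold change was 0.17 for KO against WT, with -0.02 without WT 8, 0.42 without WT 5-6 and 0.61 with library totals. It was -0.07 for KI against WT (SE 0.20, edgeR adjusted p = 0.787), and the latter took the other sign with library totals (0.29) or without WT 5-6 (0.15). The ratio of *Txnip* to *Txn1* counts within a library was 0.949 to 1.87 in WT, 0.429 to 0.563 in KO and 0.24 to 0.422 in KI libraries. A processed pseudogene of *Txn1* is annotated in GENCODE vM21, and reads could be split with it.

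*Txn2*, the mitochondrial thioredoxin, was at 110, 111, 99.2 and 91.7 CPM in KO, at 92.6, 61.4 and 72.5 CPM in WT and at 105, 122, 82.7 and 103 CPM in KI libraries. The KO and KI means were near each other, at 103 CPM each, and 1 WT library, WT 5-6, reached into both groups. KO against WT gave a log2 fold change of 0.43. KI against WT gave 0.45 (SE 0.17, edgeR adjusted p = 0.0458), but this call was lost with the replicate number as a block (adjusted p = 0.0544), when *Txn2* was tested per table entry, and without WT 7, WT 8, KI 5, KI 6 or KI 8, each left out alone.

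*Txnl1*, a thioredoxin-like protein bound to the proteasome, had 201, 177, 184 and 158 CPM in KO, 305, 303 and 192 CPM in WT and 250, 247, 221 and 287 CPM in KI libraries. KO libraries were below all KI libraries, but WT 8 lay among the KO values. The log2 fold change was -0.59 for KO against WT, with -0.75 without WT 8 and -0.46 without WT 5-6 or WT 7. For KI against WT it was -0.09 (SE 0.18, edgeR adjusted p = 0.714), within the spread of the libraries, and its sign changed with library totals and without WT 5-6 or WT 7.

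*Glrx*, the cytosolic glutaredoxin that removes glutathione from proteins, was the most abundant member in each line. It was at 930, 580, 767 and 576 CPM in KO, at 2780, 2613 and 1623 CPM in WT and at 952, 911, 855 and 1271 CPM in KI libraries. All WT libraries were above all KO and KI libraries, which overlapped. KO against WT gave a log2 fold change of -1.73, a WT mean 3.28 times the KO mean. KI against WT gave -1.23 (SE 0.21, edgeR adjusted p = 0.000578), a WT mean 2.34 times the KI mean.

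*Sod1*, the copper and zinc superoxide dismutase of the cytosol, was the only member whose KO libraries all lay above the WT libraries. It was at 152, 165, 153 and 158 CPM in KO, at 104, 78.0 and 102 CPM in WT and at 108, 118, 109 and 74.1 CPM in KI libraries. The KO libraries were above all others, and their coefficient of variation was 3.71%. The log2 fold change was 0.71 for KO against WT. KI and WT libraries overlapped, with 0.11 for KI against WT (SE 0.17, edgeR adjusted p = 0.637), and the value without WT 7 was -0.01. Counts of *Sod1* were 1.00 to 1.26 times those of *Sod2*, its mitochondrial relative, in KO, 0.808 to 0.893 times in WT and 0.909 to 1.35 times in KI libraries.

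In all, 5 of the 9 members lay below WT in every KO library (*Prxl2a*, *Prxl2b*, *Prxl2c*, *Txnip* and *Glrx*) and 1 above (*Sod1*), where 27.1% of all 13359 genes tested were lower and 28.2% higher without overlap. Nothing is read from this count, since KO values chose the members. The same 5 members lay below WT in every KI library and none above, where 21.3% of the 13534 genes tested were lower and 23.4% higher without overlap. In edgeR's test of KI against WT, 6 of the 9 members passed an adjusted p of 0.05, 5 lower and 1 higher (*Txn2*), and 42.3% of all genes tested did, 21.0% lower and 21.2% higher. The median log2 fold change of the members was -1.07 in KI cells, against -0.02 for all genes. The 2 comparisons share the WT libraries, on which the members were also chosen, so that a high or low WT level moves both. With library totals the KO values were higher by about the shift of all genes, so that *Txnip* stood at -0.71, *Prxl2c* at -0.37, *Txnl1* at -0.15 and *Sod1* at 1.12.

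**Figure D2:**
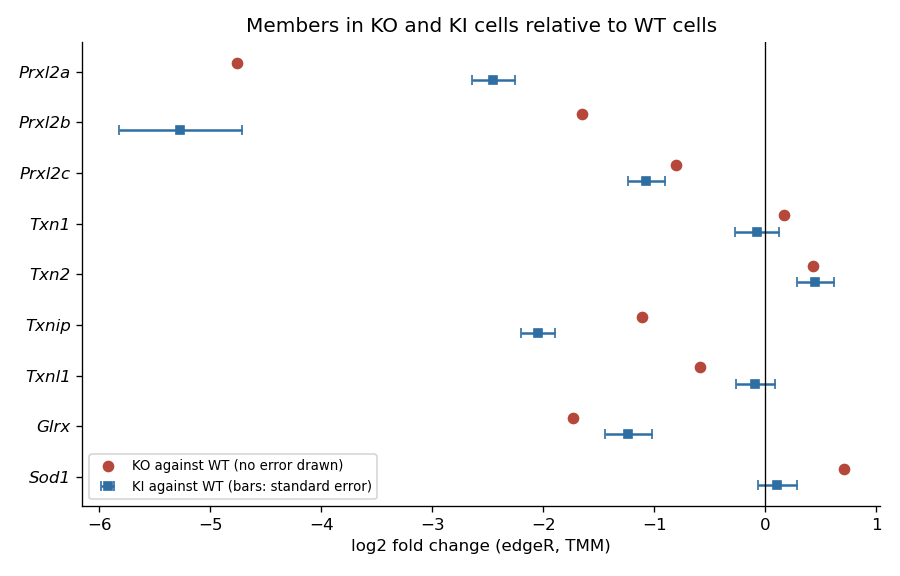
Log2 fold change (horizontal axis, edgeR with TMM) of the 9 members for KO against WT (circles, no error drawn) and KI against WT (squares, bars are standard errors). *Prxl2a* is farther from 0 in KO (-4.76) than in KI cells (-2.45), *Prxl2b* and *Txnip* are farther from 0 in KI cells, and *Sod1* is above 0 in KO cells (0.71). The 2 comparisons share the WT libraries.

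The altered lines could be set side by side without the WT libraries. *Prxl2a*, *Prxl2b*, *Txnip*, *Txnl1* and *Sod1* did not overlap between KO and KI libraries, 3 of them higher and 2 lower in KO cells. Of the 13948 genes kept over all libraries, 23.3% were higher and 24.0% lower in KO than in KI cells without overlap. KI cells had 4.91 times the KO mean for *Prxl2a* and 1.4 times for *Txnl1*. KO cells had 1.94 times the KI mean for *Txnip* and 1.54 times for *Sod1*. No ratio is given for *Prxl2b*, since the KI libraries held 11, 3, 6 and 0 counts. These differences between KO and KI cells were not tested.

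Levels can be compared between genes only per length. Per kilobase of annotated exon (GENCODE vM21, all basic transcripts of a gene joined), the order in WT cells was *Glrx* with 1712, *Txn1* with 246, *Sod1* with 148, *Txnip* with 106, *Prxl2a* with 86.5, *Txnl1* with 55.0, *Prxl2c* with 26.2, *Txn2* with 19.4 and *Prxl2b* with 6.23 CPM per kb. The libraries of *Txnip* and *Prxl2a* overlapped, as did those of *Prxl2c* and *Txn2*, while the other neighbours did not. In KO cells *Prxl2a* stood next to last, at 3.24 CPM per kb, with *Prxl2b* at 2.00 CPM per kb, and their libraries overlapped. In KI cells it was at 15.9 CPM per kb, where its libraries overlapped those of *Prxl2c* (12.5 CPM per kb). *Txnip* fell in this order from the fourth place in WT cells to a level of 25.6 CPM per kb in KI cells, next to *Txn2* with 26.5 CPM per kb.

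*Txnip* belongs to the alpha-arrestins, and its transcription is known to respond to glucose through MondoA (*Mlxip*) and ChREBP (*Mlxipl*) with their partner MLX. Of the other 5 alpha-arrestin genes and these 3 factors, 7 of 8 passed the filter on low counts, *Arrdc5* having no counts. In KO against WT, 2 of the 7 were called, 1 higher and 1 lower, where 55.1% of all genes were called, 26.7% higher and 28.4% lower, and the median of the 7 was -0.02. With library totals, 4 of the 7 were called in KO cells. In KI against WT, 5 of the 7 were called, 1 higher and 4 lower, with a median of -0.61 against -0.02 for all genes, where 42.3% of all genes were called, 21.2% higher and 21.0% lower.

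*Arrdc4*, the alpha-arrestin known to respond to glucose together with *Txnip*, had 64, 44 and 73 counts in the WT libraries, 0 in each KO library and 2, 0, 0 and 0 in the KI libraries. Against the floor of 3 counts over the KO group it was at least 117-fold lower in KO cells (edgeR adjusted p = 6.13e-05). In KI cells the WT level was 172 times that of the 2 counts found, with a 95% counting interval of 46.9 to 1429 (edgeR adjusted p = 3.06e-05). The interval covers counting error only. Both counts were found in KI 5, so that without it the KI libraries were at 0, and the fitted log2 fold change, which depends on the prior count, moved from -7.06 to -9.19.

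*Arrdc2* was at 33.3, 27.9 and 28.7 CPM in WT and at 8.45, 12.6, 10.5 and 14.3 CPM in KI libraries (log2 fold change -1.39, SE 0.18, edgeR adjusted p = 8.32e-05), while KO libraries, at 30.03 to 36.8 CPM, overlapped WT. *Mlxipl* was at 12.2, 12.8 and 19.2 CPM in WT and at 5.90, 5.32, 3.24 and 5.41 CPM in KI libraries (log2 fold change -1.57, SE 0.23, edgeR adjusted p = 0.000211), and again KO libraries, at 13.0 to 19.6 CPM, overlapped WT. *Arrdc1* was also lower in KI cells (-0.61, SE 0.14, edgeR adjusted p = 0.00359), a call lost with library totals. *Arrdc3* moved the other way, rising in KO (0.73, SE 0.14, edgeR adjusted p = 0.00109) and in KI cells (0.66, SE 0.15, adjusted p = 0.00443). *Mlxip* and *Mlx* were called in neither comparison.

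**Figure D3:**
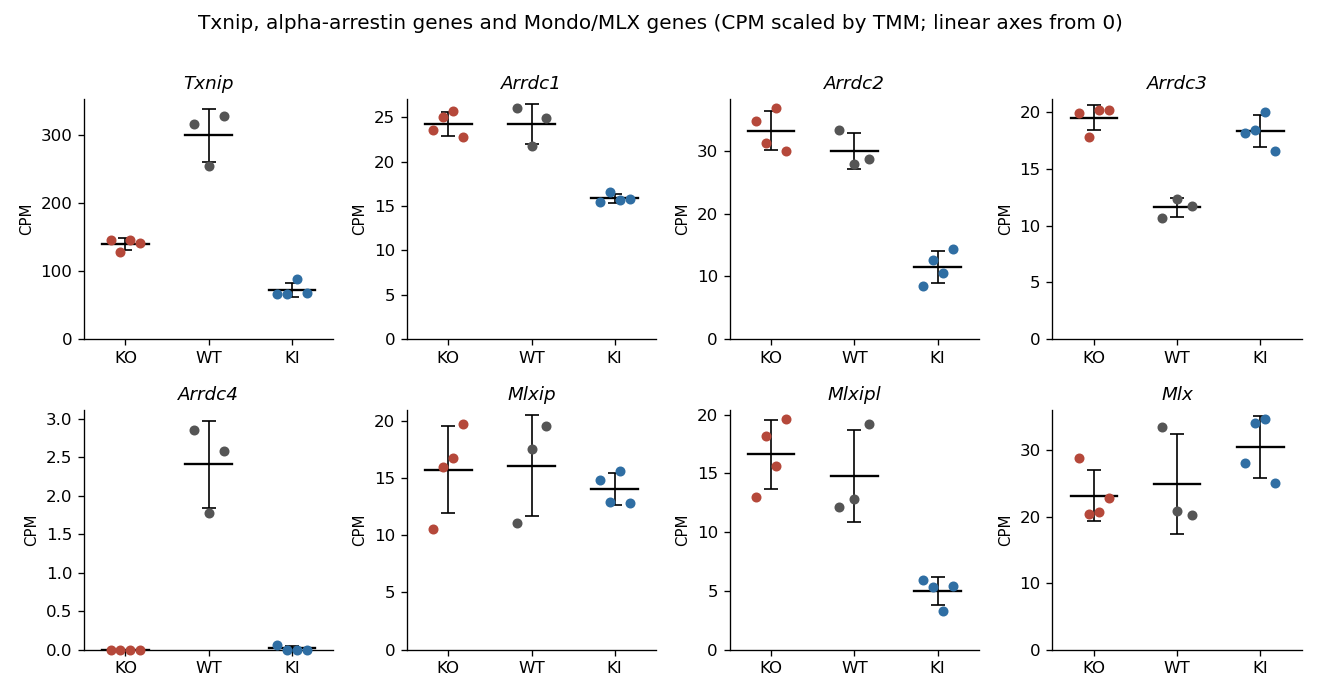
CPM (scaled by TMM, linear axes from 0) of *Txnip*, 4 other alpha-arrestin genes and the genes *Mlxip*, *Mlxipl* and *Mlx* in each library, 1 point per library, with the mean as a line and the SD as bars. All KI points of *Arrdc2* and *Mlxipl* lie below the WT points while their KO points overlap them, *Arrdc4* is at 0 in all KO libraries and in 3 of the KI libraries, and *Arrdc3* is above WT in both lines.

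The enzymes that work with thioredoxin were described with a list of 17 genes, all of which passed the filter. In KO against WT, 13 were called, 6 higher and 7 lower, with a median log2 fold change of 0.27, where 55.1% of all genes were called, 26.7% higher and 28.4% lower. With library totals 12 were called, but the lower calls of *Prdx1*, *Prdx2*, *Prdx3* and *Prdx4* were lost. This split into higher and lower therefore holds on the TMM scale only. In KI against WT, 9 were called, 5 higher and 4 lower, with a median of -0.07, where 42.3% of all genes were called, and 5 were called without WT 7. The study named *Prdx5* and the ribonucleotide reductase family from KO and WT libraries, so their KO values are not independent evidence of a direction. No p-value is given for them in KO cells. The counts of calls in KO cells include them, so nothing is read from these counts. By RT-qPCR the study reported *Prdx5* as increased in KO cells, whereas its RNA sequencing gave a decrease. The fall of *Prdx5* described below therefore has the opposite direction to that RT-qPCR result. The cause of this difference was not tested.

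*Prdx1*, *Prdx2*, *Prdx3* and *Prdx4*, whose products reduce peroxides with electrons from thioredoxin, were called lower in KO cells, where 28.4% of all genes were. The libraries of *Prdx1*, *Prdx3* and *Prdx4* overlapped WT. *Prdx5*, also lower, was named by the study from these libraries and is described without a test. *Prdx5*, found in mitochondria and peroxisomes, was at 302 to 413 CPM in KO, 950, 1357 and 1592 CPM in WT and 561 to 804 CPM in KI libraries. Its log2 fold change was -1.93 in KO (SE 0.19) and -0.94 in KI cells (SE 0.19, edgeR adjusted p = 0.00201). *Prdx2* was at -0.77 (SE 0.16) in KO cells. The calls of *Prdx1* (-0.82, SE 0.23), *Prdx2*, *Prdx3* (-0.61, SE 0.20) and *Prdx4* (-0.59, SE 0.22) in KO cells were lost with library totals, and that of *Prdx1* also without WT 7. *Prdx3* lost its call without WT 5-6, WT 7, KO 6 or KO 8, and *Prdx4* without these or KO 7.

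*Prdx4*, the peroxiredoxin of the endoplasmic reticulum, where TXNDC5 also resides, had the lowest log2 fold change of the list in KI cells. It was at 13.6 to 19.4 CPM in the KI libraries, below 71.0, 137 and 155 CPM in the WT libraries (log2 fold change -2.88, SE 0.23, edgeR adjusted p = 2.52e-06). *Prdx3* was lower in KI cells too (-0.61, SE 0.18, adjusted p = 0.017), a call lost with library totals and without WT 5-6 or WT 7. *Prdx2* was called higher in KI cells (0.60, SE 0.21, adjusted p = 0.0356), a call lost with the replicate block (adjusted p = 0.0836) and without WT 7, KI 5, KI 6 or KI 7.

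Of the genes that renew oxidised proteins, *Srxn1*, which repairs overoxidised peroxiredoxins, rose in KO cells from 41.1 to 43.7 CPM in WT to 80.0 to 84.6 CPM (log2 fold change 0.92, SE 0.11, edgeR adjusted p = 4.55e-05). *Txnrd1*, the cytosolic thioredoxin reductase, rose in KO cells as well (0.56, SE 0.15, adjusted p = 0.00951). It was also called higher in KI cells (0.37, SE 0.14, edgeR adjusted p = 0.0483), a call lost under 8 of the 14 alternatives. The methionine sulfoxide reductases went apart in KO cells, *Msrb3* being higher (1.55, SE 0.24, adjusted p = 0.000264) and *Msra* lower (-1.09, SE 0.21, adjusted p = 0.00114). The subunits of ribonucleotide reductase, which makes deoxyribonucleotides, did so too. In KO cells *Rrm1* (1.39, SE 0.15) and *Rrm2* (0.65, SE 0.14) were higher and *Rrm2b* (-1.02, SE 0.20) was lower. *Rrm1* (0.68, SE 0.15, edgeR adjusted p = 0.00296) and *Rrm2* (0.95, SE 0.16, adjusted p = 0.00045) were also higher in KI cells.

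A second list held 19 other genes of the thioredoxin fold, the glutaredoxins, glutathione reductase and the superoxide dismutases, of which 17 were tested. In KO cells 7 were called, 1 higher and 6 lower, with a median of -0.20, where 55.1% of all genes were called. In KI cells 8 were called, 2 higher and 6 lower, with a median of -0.05, where 42.3% of all genes were called, but the count fell to 3 without WT 5-6, to 4 without KI 5, and to 5 without WT 7, KI 6 or KI 7 or with the replicate block. *Txndc9* fell in KO (-0.85, SE 0.17, edgeR adjusted p = 0.00137) and in KI cells (-0.74, SE 0.17, adjusted p = 0.00371). *Txndc17*, a cytosolic relative of thioredoxin, fell in KO cells (-1.11, SE 0.18, adjusted p = 0.000375). It was also called lower in KI cells (-0.65, SE 0.18, edgeR adjusted p = 0.0131), a call lost with library totals and without WT 5-6 or WT 7. Of the 6 called lower in KO cells, *Txndc12* and *Selenof* each lost the call without KO 6, KO 7, KO 8, WT 5-6 or WT 7, left out alone. *Txndc12* also lost it without the filter on low counts and when tested per table entry. With library totals *Txndc12* took the other sign, and *Selenof*, *Nxn* and *Pdcl3* lost their calls. The list still had 7 calls in KO cells with library totals, so other genes of it were called there. The split into higher and lower therefore holds on the TMM scale only. *Selenow*, a selenoprotein, was the gene called higher in KO cells (0.69, SE 0.12, adjusted p = 0.000632), and *Glrx5*, the mitochondrial glutaredoxin of iron-sulfur cluster assembly, rose in KI cells (0.77, SE 0.20, adjusted p = 0.0071). *Ccs*, the chaperone that loads copper onto SOD1, was called lower in KI cells (-0.57, SE 0.18, adjusted p = 0.0199), a call lost with library totals and without WT 8, KI 5 or KI 7.

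**Figure D4:**
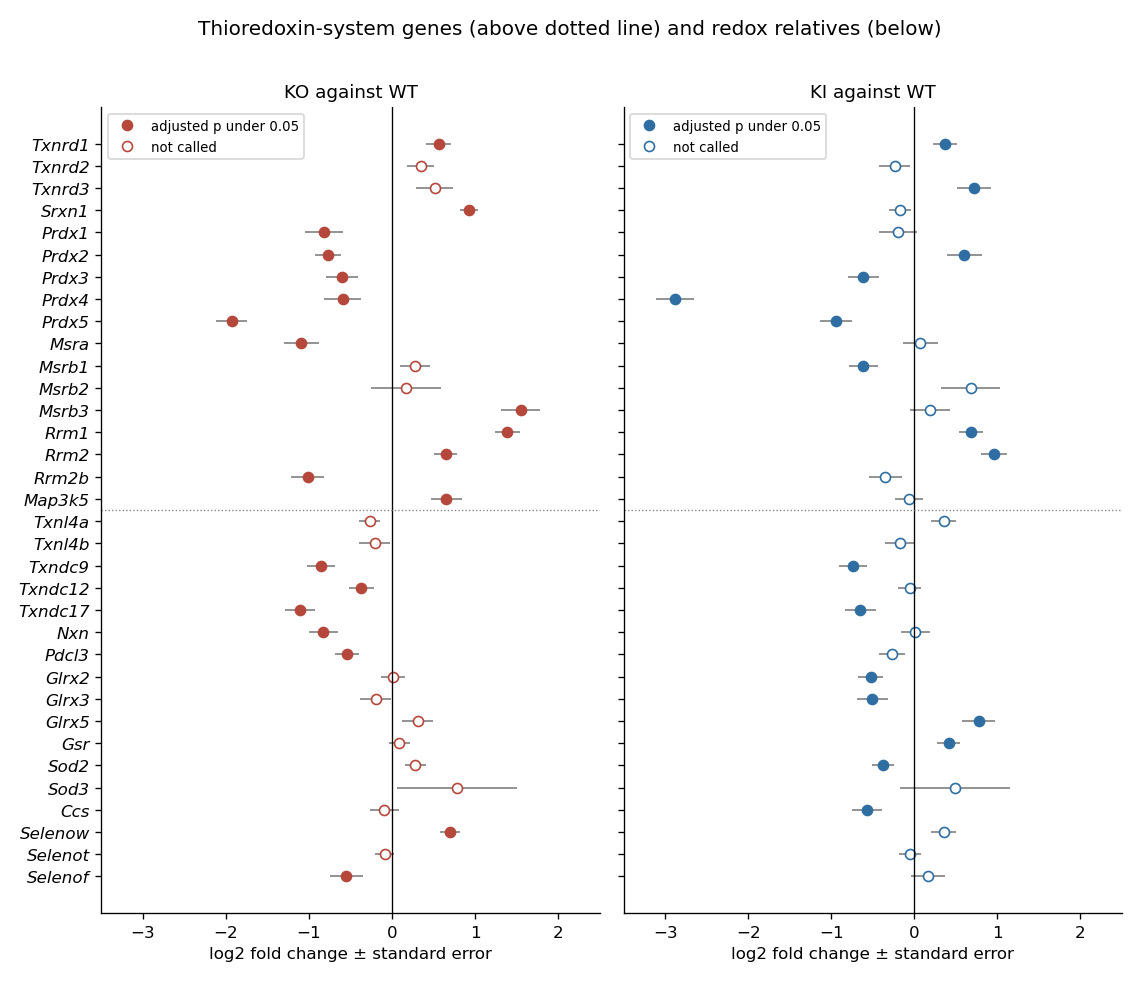
Log2 fold change with its standard error (horizontal axis) of the 17 thioredoxin-system genes (above the dotted line) and the 17 tested redox relatives (below it), for KO against WT (left) and KI against WT (right). Filled points passed an adjusted p of 0.05 in edgeR's test. The KO points of *Prdx5*, *Rrm1*, *Rrm2* and *Rrm2b* are a description only, since the study named these genes from KO and WT libraries. *Prdx5* (-1.93) is lowest in KO cells and *Prdx4* (-2.88) in KI cells.

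Some genes followed the pattern of a member closely over the 11 libraries. Among 12641 annotated genes, the log2 CPM of *Prxl2a* had the highest Pearson correlation with *Myh15* (0.992), *Zfp24* (0.991) and *Ddah2* (0.990), and that of *Txnip* with *Pid1* (0.994), *Cmtm8* (0.991) and *Acox2* (0.985). *Ddah2* was at means of 0.878, 20.2 and 4.69 CPM in KO, WT and KI cells, and *Acox2*, a peroxisomal oxidase of bile acid synthesis, at 106, 221 and 42.0 CPM. The libraries fall into 3 groups, so these values mostly restate the order of the group means and are a description. Among the members, *Glrx* followed *Prxl2a* (0.93) and *Prxl2b* followed *Txnip* (0.91).

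The 250 bases before the start of each gene were read from RefSeq (GRCm38.p6), in which 8 of the 9 members were matched. *Prxl2a*, *Prxl2b* and *Txnip* are shown because they differed most in KI cells, with *Arrdc4* beside *Txnip*, all 5′ to 3′ on the strand of the gene. For *Prxl2a*, 1 of its several entries is shown, the farthest upstream. The sequences lie at chr14:41013834-41014083 on the minus strand, chr4:154899044-154899293 on the minus strand, chr3:96557707-96557956 on the plus strand and chr7:68749239-68749488 on the minus strand. Capitals mark matches on either strand to 4 motifs. The core of the antioxidant response element was searched as TGACNNNGC. The E-box, to which MondoA and ChREBP with MLX can bind, was searched as CACGTG. The third motif, named by its letters, is the CCAAT box. The last is an E-box-like half-site, searched as CACGAG, which was chosen, as was *Arrdc4*, after the *Txnip* sequence had been seen.
Prxl2a: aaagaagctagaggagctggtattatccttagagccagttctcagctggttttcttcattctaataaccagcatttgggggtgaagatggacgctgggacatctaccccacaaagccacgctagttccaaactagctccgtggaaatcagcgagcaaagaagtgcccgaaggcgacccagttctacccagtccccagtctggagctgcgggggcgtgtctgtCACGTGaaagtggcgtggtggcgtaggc
Prxl2b: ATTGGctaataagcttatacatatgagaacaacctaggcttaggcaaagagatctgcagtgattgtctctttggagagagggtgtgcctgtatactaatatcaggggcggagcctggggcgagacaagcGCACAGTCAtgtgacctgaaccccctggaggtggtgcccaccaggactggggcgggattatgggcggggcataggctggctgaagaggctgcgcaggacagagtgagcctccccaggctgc
Txnip: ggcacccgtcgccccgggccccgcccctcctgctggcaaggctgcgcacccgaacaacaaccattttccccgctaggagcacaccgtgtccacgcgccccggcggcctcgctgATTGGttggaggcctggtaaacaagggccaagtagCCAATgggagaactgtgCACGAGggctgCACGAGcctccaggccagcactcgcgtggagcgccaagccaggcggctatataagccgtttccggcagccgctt
Arrdc4: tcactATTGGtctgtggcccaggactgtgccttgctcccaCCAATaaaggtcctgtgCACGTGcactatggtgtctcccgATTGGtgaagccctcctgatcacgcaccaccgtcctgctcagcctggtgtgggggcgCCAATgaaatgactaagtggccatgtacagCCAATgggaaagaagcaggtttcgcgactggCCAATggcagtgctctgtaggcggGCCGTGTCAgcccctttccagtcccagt
Of all 32851 windows of this length in RefSeq's table, 10.2% hold the antioxidant response core, 6.02% the E-box, 33.8% the CCAAT box and 5.37% the half-site. *Prxl2a* held an E-box 28 to 23 bases before this start. *Prxl2b* held the antioxidant response core 121 to 113 bases before its start, on the opposite strand, and a CCAAT box. *Prxl2c* held the core 66 to 58 bases before its start, overlapping a half-site at 70 to 65. *Txnip* held the half-site at 2 places, 85 to 80 and 74 to 69 bases before its start, and a CCAAT box on each strand, whereas *Arrdc4* held an E-box 193 to 188 bases before its start 6 CCAAT boxes and the antioxidant response core 28 to 20 bases before its start. *Sod1* held the antioxidant response core 56 to 48 bases before its start, on the opposite strand, and a CCAAT box, and *Txn2* held a CCAAT box. Some of the other entries of *Prxl2a*, farther downstream, held the antioxidant response core with a CCAAT box, and the rest held neither. A match is a description of letters and no evidence of binding.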

How the data were processed

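The authors deposited a table of whole-number read counts per gene for the 11 libraries, without normalization. The submitters' processing notes name HISAT2, TopHat2, Bowtie2 and StringTie, while the roles of these tools, the genome build and the counting tool are not given in the sources used here. The deposited FPKM values, 11 columns in which decimal points were damaged, and 9 columns of the authors' own DESeq2 comparisons (fold changes and p-values) were not used. Of 26472 lines, 10 with broken fields were left out, and counts were summed by gene name.

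After edgeR's filter on low counts and TMM scaling, the 2 groups compared were fitted by quasi-likelihood (edgeR 4.0.16, R 4.3.3), with Benjamini-Hochberg adjustment over all genes tested and a threshold of 0.05. Levels are CPM with TMM over all 11 libraries, with a prior count of 2 for log2 CPM. Alternatives were library totals, DESeq2 1.42.0, no filter, 1 fit over all libraries, leaving out the 2 most abundant new entries, the replicate number as a block, leaving out each library, and each table entry on its own. TMM over the libraries compared only was chosen after seeing the data. The members and lists were chosen with earlier results of these data known. The named genes are the members, *Txndc5*, the genes of 3 lists that passed the filter, and the 3 genes most like *Prxl2a* and *Txnip*. Marker genes were listed likewise. Each library held at least 29840366 counts, and counting intervals cover counting error only. Python 3.11.15 with matplotlib 3.10.9 drew the figures.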

Additional observations from a re-analysis of the deposited data

Results flagged for a closer look

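The level of *Prxl2b* in KO cells had 1 library far from the others. KO 7, with 0.81 CPM from 27 counts, lay below KO 5, KO 6 and KO 8 at 1.96 to 2.16 CPM, and its gap to the nearest of them was 0.848 of the range of the group. The log2 fold change of KO against WT was -1.42 without KO 7.

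The level of *Txnip* in KI cells had 1 such library as well. KI 7, with 88.4 CPM, lay above KI 5, KI 6 and KI 8 at 65.7 to 68.2 CPM, a gap of 0.890 of the range. All 4 KI libraries were nevertheless below the lowest WT library (255 CPM). Of 20 groups of 4 libraries looked at, 2 were found, where chance gives about 1.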

How the results depend on the processing

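For KI against WT, the calls of *Prxl2a*, *Prxl2b*, *Prxl2c*, *Txnip* and *Glrx* kept their direction and their side of the threshold under all 14 alternatives run, and that of *Txn2* was lost under 7 of them. The count of members called was 6, with 5 to 6 over the libraries left out, and 5 with the replicate block. Values that took the other sign, none of them past the threshold, were those of *Txn1* with library totals (0.2857), of *Txnl1* with library totals (0.2641), and of *Txn1*, *Txnl1* and *Sod1* when a WT library was left out. Over the libraries left out, *Txn1* ranged from -0.2881 to 0.1518, *Txnl1* from -0.2739 to 0.0222 and *Sod1* from -0.0147 to 0.2383. In KO cells, *Txndc12* was called lower at -0.37 and stood at 0.0566 with library totals. Among the Txnip relatives, library totals gave 4 calls in KO cells in place of 2. Over the libraries left out, the calls of the thioredoxin-system list in KI cells ranged from 5 to 11 around 9, and those of the redox relatives from 3 to 9 around 8. The calls over all genes ranged from 6161 to 8449 in KO and from 4276 to 6969 in KI cells. The causes of these changes were not tested.

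The correlations of same-numbered libraries across lines lay between -0.19 and 0.21, with WT 5-6 not among the libraries compared. They cannot tell whether the replicate numbers pair the libraries, and the labels do not say. With the replicate block, taking 5, 6 and 5-6 as 1 block, 8183 genes were called in KO against 7364 and 4891 in KI against 5722. The block gave 14 calls of the thioredoxin-system list in KO and 7 in KI, 9 of the redox relatives in KO and 5 in KI, and 2 and 5 of the Txnip relatives. Depth limits *Prxl2b* and *Arrdc4* in KI cells, where libraries held 0 to 11 and 0 to 2 counts.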
